A study of Homo sapiens with 4 samples.

Results

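The comparison described here sets MCF10A cells that carried YAP-W1W2, a form of YAP with both WW domains mutated, against MCF10A cells that carried wild-type YAP (YAP-WT). Its members are 2 of the 4 samples of the series, 1 array per group, chosen by their labels; the arrays of YAP-S94A and of empty vector were the other samples. MCF10A is a line of human breast epithelial cells that does not form tumours. YAP-W1W2 and YAP-WT were both delivered by a retrovirus made from the vector pQCXIH, and both cultures were kept in a growth medium that held insulin, cholera toxin, hydrocortisone, horse serum and epidermal growth factor. No label speaks of a loss of the cells' own YAP gene, and whether each line was a pool of infected cells or 1 clone is not given in the sources used here. Total RNA was read on an Affymetrix array, on which a probe set is a group of short probes against 1 transcript and its intensity is a brightness on a linear scale, with no physical unit.

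YAP is a transcriptional coactivator of the Hippo pathway. It has no DNA-binding domain of its own and reaches its target genes mostly through the TEAD family of transcription factors, which bind another stretch of YAP than the WW domains. The WW domains are short folds that hold proline-rich PPxY motifs, and their known partners include the LATS kinases, the AMOT proteins, PTPN14 and the transcription factors of the RUNX family. In MCF10A cells, raised YAP activity is known for growth without the usual growth factors and for a shift from an epithelial towards a mesenchymal shape.

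With 1 array per group there was no replicate check. No test, standard error or p-value could be computed, and the labels do not say whether the cultures were handled in parallel, so the construct and the array cannot be told apart. A difference of 2-fold or more was the threshold for counting a gene. Each gene was read from 1 probe set, the one with the highest mean over the 4 arrays among those with a single gene symbol, and intensities under 72.9 were raised to that floor before log2 was taken. A fold with 1 array at the floor is a lower bound, written as "at least". Log2 differences given for other probe sets include such bounds, unless said to be above the floor on both arrays. All log2 differences are YAP-W1W2 minus YAP-WT. A gene counted as measured if its mean over the 4 arrays was at least 113.58, which left 12759 of 19775 genes, and 12740 could be compared because at least 1 of the arrays lay above the floor.

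The arrays were of like overall brightness. The 2% trimmed mean over probe sets was 481.2 in YAP-W1W2 and 502.9 in YAP-WT, and the median probe set read 116.1 in YAP-W1W2 and 112.3 in YAP-WT. The ratio of 3' to 5' control probe sets, a sign of RNA breakdown when it is high, was 1.02 in both arrays for GAPDH, and 0.964 in YAP-W1W2 against 1.07 in YAP-WT for actin. The bacterial and phage control RNAs read lower in YAP-W1W2, with mean differences between -0.90 and -0.53 on the log2 scale, while the GAPDH and actin control sets read higher by 0.23 and 0.37. The part of this difference in the gene results was not tested.

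YAP1, the gene of the introduced protein, had 3 probe sets. They read 4657, 3953.5 and 1471.9 in YAP-W1W2, against 3461.5, 3908.4 and 871.8 in YAP-WT. In the vector array the same probe sets read 4085.5, 3567.7 and 1024.8. The YAP-WT array thus lay below the vector array for 2 of the 3 probe sets, and whether these probe sets lie within the introduced sequence is not given in the sources used here, so they do not check the labels.

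Keratins of basal and of luminal mammary cells were bright in both arrays. The basal keratin KRT5 read 30481.6 in YAP-W1W2, against 33856.2 in YAP-WT, and KRT14 read 39724.1 in YAP-W1W2, against 36340.6 in YAP-WT. Of the luminal keratins, KRT7 read 39356 in YAP-W1W2, against 35969.5 in YAP-WT. KRT18 read 34605 in YAP-W1W2, against 16989.6 in YAP-WT, while KRT19 was below the floor in both. Of the 11 immune cell markers on the array, 6 lay at or below the floor on each array, among them the leukocyte antigen PTPRC in YAP-W1W2 and the antigen-presentation gene HLA-DRA in both. In such whole-culture RNA, fewer cells of a type and less RNA per cell cannot be told apart.

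At the 2-fold threshold, 499 genes were higher in YAP-W1W2, which is 3.92% of the genes compared, and 713 were lower, which is 5.6%. Among them, 127 higher and 133 lower genes were bounds. Scaled to the same trimmed mean, the arrays gave 579 higher and 594 lower genes, and quantile normalization gave 572 and 582. The size of the excess of lower genes thus depended on the scaling. At 4-fold, 46 genes (0.361%) were higher and 68 (0.534%) were lower. The median difference over all genes compared was -0.04, and the middle 50% of genes ran from -0.39 to 0.29.

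Dim genes supplied most of the higher calls. Split by mean intensity into 4 groups of 3185 genes, 10.2% of the dimmest group were higher by 2-fold or more, against 1.16% of the brightest group. The lower calls thinned out less steeply, with 8.82% in the dimmest and 2.32% in the brightest group.

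**Figure D1:**
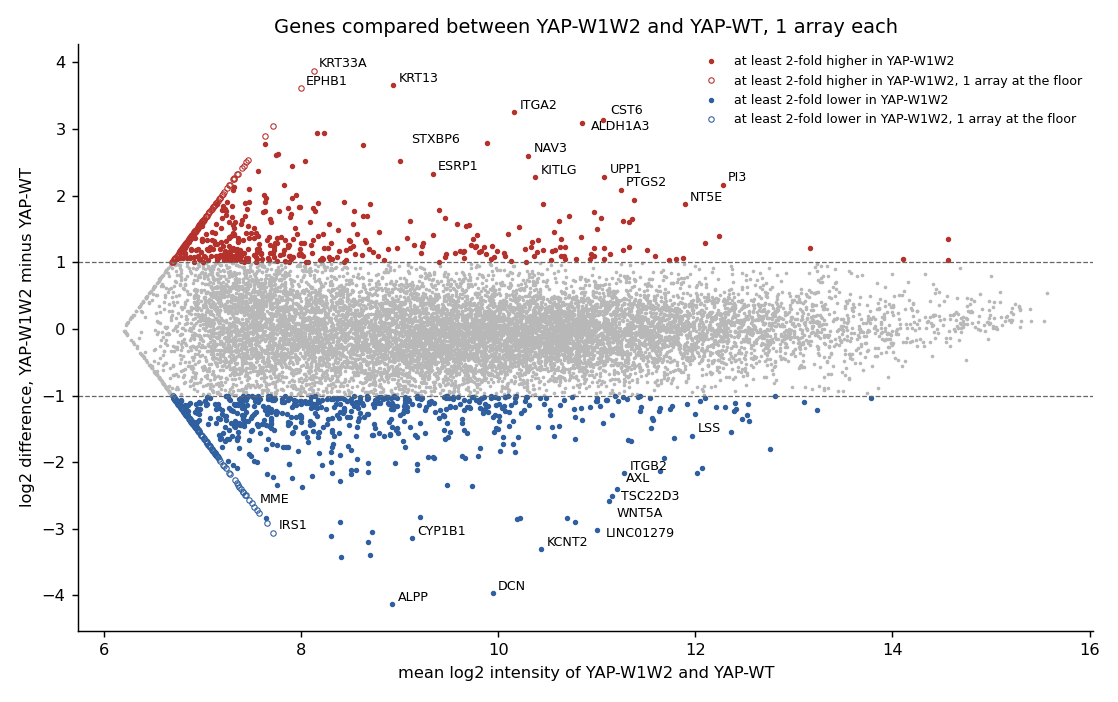
Each point is 1 of the 12740 genes compared. The horizontal axis is the mean log2 intensity of the arrays and the vertical axis the log2 difference, YAP-W1W2 minus YAP-WT; red points are at least 2-fold higher in YAP-W1W2, blue points at least 2-fold lower, open circles have 1 array at the floor, and dashed lines mark 2-fold. Higher genes thin out towards high intensity, while DCN, KCNT2, LINC01279, AXL and LSS are lower genes in the middle and right of the plot.

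The 25 genes with the largest positive difference, among those above the floor on both arrays, included 5 with known roles in epithelia. KRT13, a keratin of the upper layers of moist stratified epithelia, led them with an intensity of 1730.5 in YAP-W1W2, against 137.6 in YAP-WT, which is 12.6-fold higher. Next was ITGA2, the collagen-binding integrin subunit alpha-2, with 3518 in YAP-W1W2, against 370.1 in YAP-WT (9.51-fold). CST6, the cystatin that inhibits lysosomal cysteine proteases in skin, had an intensity of 6325.1 in YAP-W1W2, against 717.1 in YAP-WT (8.82-fold). PI3, the protease inhibitor elafin, was well above the floor in both arrays and read 10493.8 in YAP-W1W2 and 2344 in YAP-WT. ESRP1, the splicing factor that sets epithelial splice forms, had 1446.3 in YAP-W1W2, against 287.5 in YAP-WT, or 5.03-fold higher.

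Another 5 of the 25 encode secreted signals or enzymes that make signals. HBEGF, a membrane-anchored ligand of the EGF receptor, read 628.3 in YAP-W1W2, against 109.5 in YAP-WT (5.74-fold). KITLG, the ligand of the receptor KIT, had 2917.8 in YAP-W1W2, against 602.4 in YAP-WT. ANGPTL4, the secreted inhibitor of lipoprotein lipase, had 1221.6 in YAP-W1W2, against 213.8 in YAP-WT, 5.71-fold higher. PTGS2, the inducible cyclooxygenase that starts prostaglandin synthesis, read 4990.9 in YAP-W1W2, against 1172.3 in YAP-WT (4.26-fold). ALDH1A3, which makes retinoic acid from retinaldehyde, stood at 5358.9 in YAP-W1W2, against 630.5 in YAP-WT. Its other probe set was under the floor in YAP-W1W2, at 50.1, and barely above it in YAP-WT, at 73.4. The difference of -0.01 for that probe set is thus a bound.

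The remaining leading higher genes had mixed roles. NAV3, a microtubule-binding protein, read 3112.2 in YAP-W1W2, against 513.7 in YAP-WT, 6.06-fold higher, and STXBP6, a protein of vesicle fusion, read 2488.7 in YAP-W1W2, against 360.3 in YAP-WT. For STXBP6 the 3 other probe sets were also higher, by 0.83, 1.57 and 1.89. UPP1, the uridine phosphorylase, stood at 4754.9 in YAP-W1W2, against 978.6 in YAP-WT. CYP4F11, a fatty acid hydroxylase, had 1028.2 in YAP-W1W2, against 152.1 in YAP-WT. ZNF710, ANHX, ADAMTS10, ASB10, PPP2R2D, RAB4B, MIPEPP3, SNRPF-DT, BOC, LRRC43 and DRC4 completed the 25, with differences between 2.09 and 2.94. These were dim in YAP-WT, between 75.9 for ADAMTS10 and 108.6 for ANHX, close to the floor of 72.9. For ZNF710 the 4 other probe sets went different ways, from -0.84 to 0.84. Another probe set above the floor on both arrays differed by -0.16 for LRRC43, 0.43 for MIPEPP3, 0.51 for PPP2R2D and 0.78 for BOC.

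**Figure D2:**
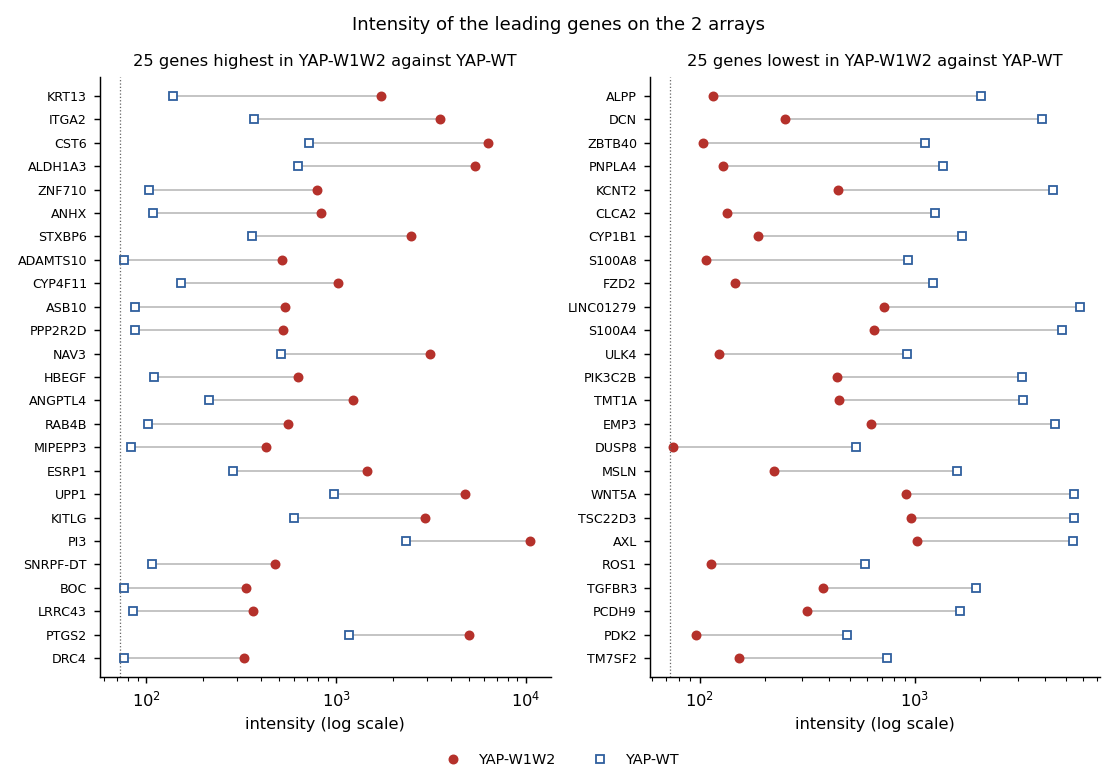
Intensity on a log axis of the 25 genes with the largest positive difference (left) and the 25 with the largest negative difference (right); red circles are YAP-W1W2, blue open squares YAP-WT, and the dotted line is the floor of 72.9. Many YAP-WT values of the higher genes sit near the floor, whereas genes such as CST6, PI3 and PTGS2 are well above it on both arrays.

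The 25 genes with the largest negative difference held matrix and membrane proteins, secreted factors and enzymes. ALPP, the placental alkaline phosphatase, read 115.8 in YAP-W1W2, against 2026.7 in YAP-WT, which is 17.5-fold lower. DCN, the small leucine-rich proteoglycan decorin that binds collagen fibrils, read 248.3 in YAP-W1W2, against 3884.2 in YAP-WT, 15.6-fold lower. Of the 6 other DCN probe sets, 3 were also lower, at -1.70, -4.36 and -5.00, and the rest lay between 0 and 0.35. KCNT2, a sodium-activated potassium channel subunit, read 439.7 in YAP-W1W2, against 4360.0 in YAP-WT (9.92-fold). CLCA2, a basal-epithelial protein of the chloride channel accessory family and a known p53 target, had 134.6 in YAP-W1W2, against 1239.5 in YAP-WT. The 3 other CLCA2 probe sets were lower as well.

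The 25 also included FZD2, a Wnt receptor, with 145.8 in YAP-W1W2, against 1210.6 in YAP-WT, and WNT5A, a secreted Wnt of the beta-catenin-independent branch, with 911.6 in YAP-W1W2, against 5462.2 in YAP-WT (5.99-fold). AXL, a receptor tyrosine kinase and a known YAP target, had 1022.8 in YAP-W1W2, against 5431.8 in YAP-WT (5.31-fold). TGFBR3, the TGF-beta co-receptor betaglycan, stood at 373.9 in YAP-W1W2, against 1923 in YAP-WT. PIK3C2B, a class II phosphoinositide kinase, had 431.9 in YAP-W1W2, against 3133.4 in YAP-WT. Each of these 5 genes was above the floor on both arrays. TSC22D3, the glucocorticoid-induced leucine zipper, read 954.3 in YAP-W1W2, against 5444.9 in YAP-WT. Its other probe sets differed by -2.26 and 0.30.

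Others in the lower group were small calcium-binding proteins and enzymes. S100A8, a subunit of calprotectin, read 107.1 in YAP-W1W2, against 924.9 in YAP-WT, and S100A4, a cytoskeleton-binding protein known from mesenchymal cells, had 641.9 in YAP-W1W2, against 4791.6 in YAP-WT. The estrogen-hydroxylating enzyme CYP1B1 had 187.5 in YAP-W1W2, against 1654.9 in YAP-WT, 8.83-fold lower. EMP3, an epithelial membrane protein, read 622.7 in YAP-W1W2, against 4446.7 in YAP-WT, and MSLN, the cell-surface protein mesothelin, read 221.3 in YAP-W1W2, against 1563 in YAP-WT. LINC01279, a long non-coding RNA, stood at 718.4 in YAP-W1W2, against 5829.8 in YAP-WT. PNPLA4 and TMT1A were lower, at -3.39 and -2.84 in the probe set used, while other probe sets of both genes reached 0.20 and 0.90. ZBTB40, ULK4, DUSP8, ROS1, PCDH9, PDK2 and TM7SF2 completed the list, with differences between -3.42 and -2.28. Another probe set above the floor on both arrays differed by -0.25 for DUSP8, -0.11 for PDK2, -0.27 for ZBTB40 and -0.33 for ULK4.

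Where a leading gene had further probe sets, most went the same way. The 25 higher genes had 23 other probe sets with a value, of which 18 had the same sign, 12 of them at 2-fold, and 5 the opposite sign. The 25 lower genes had 30, with 25 of the same sign, 17 of them at 2-fold, and 5 opposite. None of the opposite ones reached 2-fold. Over all genes named by the rule and past 2-fold, 79 had another probe set above the floor on both arrays. For 50 of them at least 1 such probe set did not pass 2-fold in the same direction. For 22 at least 1 had the opposite sign, as in SEMA6D, where it passed 2-fold at 1.31.

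Among genes at the floor in YAP-WT, KRT33A, a hair keratin, was at least 14.7-fold higher, with an intensity of 1069.2 in YAP-W1W2, against 38.6 in YAP-WT. EPHB1, an ephrin receptor, was at least 12.2-fold higher, and 2 further EPHB1 probe sets were higher too. The MAP kinase phosphatase DUSP2 was at least 7.43-fold higher and the cornified-layer gene CRCT1 at least 8.25-fold. CCDC13, SRC, GOLT1A, CYP3A4, SPRN, XIRP1, USP20 and SLC6A17 were higher too, with bounds between at least 4.78-fold and at least 5.78-fold. For CCDC13, SRC and CYP3A4, other probe sets fell on both sides of 0.

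Among genes at the floor in YAP-W1W2, IRS1, the docking protein of the insulin and IGF receptors, was at least 8.31-fold lower, with 61 in YAP-W1W2, against 606.1 in YAP-WT, although its other probe sets differed by -1.65 and 0.83. MME, the basal cell peptidase also called CD10, was at least 6.35-fold lower, with 20.6 in YAP-W1W2, against 463.2 in YAP-WT. MYLK, the myosin light chain kinase, was at least 6.82-fold lower, with other probe sets at -1.21 and 0.25. SLC27A5, ABAT, TRAPPC6A, HAGHL, SYNPO, THTPA, EVC, DGKD and RERG were lower with bounds between at least 5.28-fold and at least 7.56-fold. Other probe sets were at -0.26 for ABAT and 0.56 for SYNPO.

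Beside these, 36 gene lists were read, chosen with earlier results of these data known. Each list's counts stand against the 3.92% higher and 5.6% lower of all genes compared, and its median against -0.04. The lists were not matched for brightness. In the brightest of the 4 groups above, 1.16% of genes were higher and 2.32% lower, against 10.2% and 8.82% in the dimmest. In 1 pair of arrays a list that departs from these figures is a description of these arrays only.

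**Figure D3:**
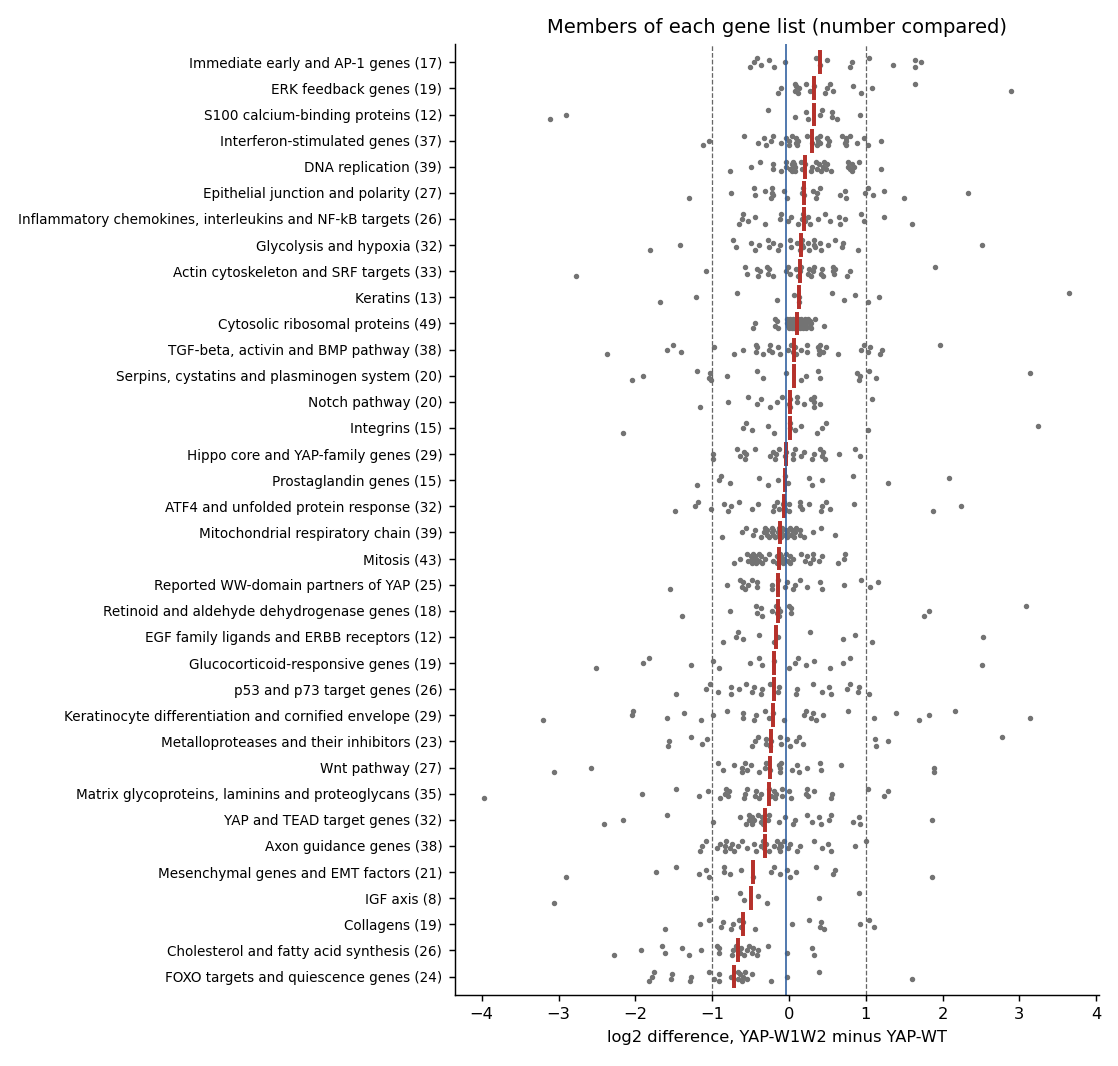
Each row is 1 gene list and each point 1 of its genes, with the log2 difference, YAP-W1W2 minus YAP-WT, on the horizontal axis; red ticks mark list medians, the blue line is the median of all genes (-0.04) and dashed lines mark 2-fold. The lists of cholesterol synthesis and of FOXO and quiescence genes have nearly all their points left of 0, and that of ERK feedback genes has nearly all of its points right of 0.

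The list of YAP and TEAD target genes draws in part on studies of YAP overexpression in the same cell line, so it is not independent evidence of a direction. Past 2-fold, 1 of its 32 measured genes was higher and 3 were lower, with 12 above 0, 20 below 0 and a median of -0.31. That is 3.13% higher and 9.38% lower, beside 3.92% and 5.6% of all genes compared. The lower ones were AXL, with the values given above, ITGB2, the integrin beta-2 subunit, with 1169.7 in YAP-W1W2, against 5243.9 in YAP-WT, and TGFB2, a TGF-beta ligand, with 328 in YAP-W1W2, against 984.8 in YAP-WT. Of the other TGFB2 probe sets, 3 were lower, at -1.15, -1.08 and -0.53, and 1 higher, by 0.89. The higher one was NT5E, the ecto-5'-nucleotidase CD73, with 7258.1 in YAP-W1W2, against 1989.7 in YAP-WT (3.65-fold).

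The matricellular proteins CCN2 and CCN1, the most used readouts of YAP and TEAD, differed by less than 2-fold and to opposite sides. CCN2 read 8074.9 in YAP-W1W2 and 5523.3 in YAP-WT, a difference of 0.55. CCN1 read 17803.8 in YAP-W1W2 and 21350.3 in YAP-WT, a difference of -0.26, with its other probe set at 0.29. Also under the threshold were F3, the clotting initiator tissue factor, at 0.92, the IGF-binding protein IGFBP3 at 0.92, the cardiac ankyrin repeat protein ANKRD1 at 0.52 and the junction protein AJUBA at -0.99. Another probe set passed 2-fold for IGFBP3, with 23820.5 in YAP-W1W2, against 9489.9 in YAP-WT (1.33), and for AJUBA, at -1.30. AMOTL2, itself a YAP-binding protein, was at -0.64, and the survivin gene BIRC5 at -0.46. The other members, ETV5, RBMS3, ARHGEF17, CRIM1, FOXF2, CRY1, ASAP1, BDNF, GLI2, INHBA, THBS1, GADD45B, FJX1, WWC1, DLC1, MYOF, EDN1, AMOTL1, LATS2 and PTPN14, lay between -0.56 for RBMS3 and 0.84 for ETV5 in the probe set used. Other probe sets of 4 of them passed 2-fold, at 1.15 for INHBA, 1.61 for GADD45B, -1.75 for THBS1 and -1.49 for LATS2.

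The TEAD core motif is GGAATG, which reads CATTCC on the other strand. The promoter windows of CCN2 and TGFB2, from 250 bases before to 50 after the transcript start in RefSeq GRCh38.p14, are shown because their values went apart, with the motif in capitals on either strand. They lie at chr6:131951323-131951622 on the minus strand and chr1:218345086-218345385 on the plus strand, and both are written 5′ to 3′ in the direction of the gene.
CCN2: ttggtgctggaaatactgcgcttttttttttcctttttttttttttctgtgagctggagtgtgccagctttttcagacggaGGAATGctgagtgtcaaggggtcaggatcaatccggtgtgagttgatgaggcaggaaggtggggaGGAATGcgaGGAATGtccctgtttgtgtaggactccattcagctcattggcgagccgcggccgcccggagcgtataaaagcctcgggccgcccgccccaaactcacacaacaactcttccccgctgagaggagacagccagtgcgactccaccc
TGFB2: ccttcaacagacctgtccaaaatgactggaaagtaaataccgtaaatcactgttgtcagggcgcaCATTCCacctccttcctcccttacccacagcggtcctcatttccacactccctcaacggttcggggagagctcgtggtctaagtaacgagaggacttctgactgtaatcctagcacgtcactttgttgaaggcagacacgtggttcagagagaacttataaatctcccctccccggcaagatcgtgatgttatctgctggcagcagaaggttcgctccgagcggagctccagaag
CCN2 had 3 matches and TGFB2 had 1. The motif was found in 11 of the 34 windows of the target list (32.4%), against 14% of all 35116 windows. Among the windows of genes at least 2-fold higher in YAP-W1W2 it was found in 13.4%, among those of the lower genes in 12.7%, and among all genes compared in 11.7%. For 24 of the 32 genes of the list a window was found. A match is a string of letters and not a bound site.

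In the probe set used for each, none of 29 measured genes of the core pathway and the YAP family reached the threshold in either direction, and the median was -0.04. The largest differences were those of AJUBA at -0.99, the kinase STK3 (MST2) at -0.99, and the TEAD cofactor VGLL1 at 0.93. TEAD1 read 11482.9 in YAP-W1W2 and 10307.9 in YAP-WT, and TEAD4 read 1661.3 in YAP-W1W2 and 1055.3 in YAP-WT. WWTR1, the YAP paralogue TAZ, differed by -0.58 in the probe set used, with others at 0.19 and 1.22. Further probe sets of 4 genes, above the floor on both arrays, did pass 2-fold on the lower side. These were the kinase LATS2 at -1.49, AJUBA at -1.30, TEAD2 at -1.31 and NF2, the merlin gene, at -1.02. The members in between were RASSF1, VGLL3, AMOTL2, LATS1, LIMD1, RASSF5, WTIP, TEAD2, YAP1, SAV1, MOB1B, WWC1, TEAD3, FRMD6, VGLL4, NF2, TAOK1, TAOK3, AMOTL1, LATS2, STK4, PTPN14 and MOB1A.

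The transcripts of proteins reported to bind the WW domains of YAP gave 2 higher and 1 lower of 25, with a median of -0.14. PRRG4, a transmembrane protein with PPxY motifs, read 2809.5 in YAP-W1W2, against 1352.1 in YAP-WT. RUNX3 was at least 2.23-fold higher, while another probe set, above the floor on both arrays, differed by 0.17. RUNX2, the osteoblast regulator, read 167.3 in YAP-W1W2, against 491.5 in YAP-WT, but its other probe sets ran from -0.08 to 1.09.

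Sterol and fatty acid synthesis was the list that stood lowest among the metabolic ones. Of 26 measured genes, 7 (26.9%) were lower by 2-fold or more and none higher. 24 lay below 0 and 2 above, and the median was -0.66. Over all alternative settings the median stayed between -0.73 and -0.57.

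The lower genes of sterol synthesis lay at several steps of the pathway. MVD, the decarboxylase that makes isopentenyl diphosphate, read 331.9 in YAP-W1W2, against 1263 in YAP-WT (3.81-fold). LSS, the cyclase that makes lanosterol, read 2293.6 in YAP-W1W2, against 6988.3 in YAP-WT (3.05-fold). TM7SF2, a sterol reductase of the later steps, had 152.7 in YAP-W1W2, against 740.7 in YAP-WT (4.85-fold). INSIG1, which holds the sterol sensor SCAP in the endoplasmic reticulum and is itself a target of SREBP, the regulator of these genes, read 991.5 in YAP-W1W2, against 3111.5 in YAP-WT (3.14-fold). The seventh lower gene was DHCR7, the last enzyme of the pathway, with 2323.3 in YAP-W1W2, against 5157.4 in YAP-WT, named after its value was seen.

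In fatty acid synthesis, SCD, the stearoyl-CoA desaturase, read 3695.4 in YAP-W1W2, against 9657.8 in YAP-WT, and ACSS2, the cytosolic acetyl-CoA synthetase, read 1454.8 in YAP-W1W2, against 3569.7 in YAP-WT. Both were more than 2-fold lower. The genes outside the threshold, such as HMGCS1 at -0.69, ACLY at -0.93 and FADS2 at -0.74, named after their values were seen, were lower by less than 2-fold. STARD4, a cholesterol transporter and also named afterwards, was at 0.30.

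The promoters of sterol genes are known for a CCAAT box, bound by NF-Y, beside the SREBP site. The windows of MVD, INSIG1 and LSS, among the lower genes of the list that have a match, are shown with CCAAT, or ATTGG on the other strand, in capitals. They lie at chr16:88663042-88663341 (minus strand), chr7:155297628-155297927 (plus strand) and chr21:46228725-46229024 (minus strand) in GRCh38.p14, again 5′ to 3′ along the gene.
MVD: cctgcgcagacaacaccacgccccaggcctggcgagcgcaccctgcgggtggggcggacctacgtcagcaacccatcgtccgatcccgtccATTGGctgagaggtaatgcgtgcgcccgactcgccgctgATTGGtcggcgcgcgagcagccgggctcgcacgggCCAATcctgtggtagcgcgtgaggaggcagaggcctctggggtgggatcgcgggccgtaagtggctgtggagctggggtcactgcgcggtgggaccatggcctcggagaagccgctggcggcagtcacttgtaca
INSIG1: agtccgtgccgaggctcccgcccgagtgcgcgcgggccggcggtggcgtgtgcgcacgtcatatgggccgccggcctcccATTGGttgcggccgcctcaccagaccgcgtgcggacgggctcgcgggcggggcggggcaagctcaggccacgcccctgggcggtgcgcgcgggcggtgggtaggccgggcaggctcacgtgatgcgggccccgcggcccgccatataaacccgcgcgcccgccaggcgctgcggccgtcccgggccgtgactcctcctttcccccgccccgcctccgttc
LSS: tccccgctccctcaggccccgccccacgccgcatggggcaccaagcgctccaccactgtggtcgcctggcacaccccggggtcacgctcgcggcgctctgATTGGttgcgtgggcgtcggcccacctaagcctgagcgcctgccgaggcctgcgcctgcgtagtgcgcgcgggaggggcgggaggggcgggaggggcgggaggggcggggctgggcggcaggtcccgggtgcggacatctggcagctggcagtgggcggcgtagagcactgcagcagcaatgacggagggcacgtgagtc
MVD had 3 matches, INSIG1 had 1 and LSS had 1. CCAAT was found in 25 of the 34 windows of the list (73.5%), against 34.6% of all windows and 34.8% of those of genes compared. A window was found for 24 of its 26 genes, and both motifs were counted separately, on both strands. All 7 lower genes of the list had it in at least 1 window, as did 21 of the 24 list genes with a window. Among all genes compared that had a window, 4471 of 10352 did. Across all genes at least 2-fold lower it was in 32.3% of windows, and in 33.1% for the higher genes.

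FOXO factors act when growth factor signalling through AKT is low, and switch on genes of cell cycle exit and fuel economy. Of 24 measured FOXO targets and genes of quiescence, 8 (33.3%) passed 2-fold on the lower side and 1 on the higher side. 22 lay below 0, and the median was -0.71, between -0.83 and -0.64 over all alternative settings.

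GAS1, a growth arrest protein of the cell surface, read 485.7 in YAP-W1W2, against 1670.3 in YAP-WT. FBXO32, the muscle-atrophy ubiquitin ligase atrogin-1, read 193.4 in YAP-W1W2, against 652 in YAP-WT. Of its other probe sets, 3 were lower, at -1.56, -1.56 and -1.35, and another was at 0.05. KLHL24 stood at 169.8 in YAP-W1W2, against 494 in YAP-WT, and SESN3, an inhibitor of mTORC1, at 163.6 in YAP-W1W2, against 471.1 in YAP-WT. Other SESN3 probe sets with a value were at -0.38 and 0.65. PDK4, the kinase that shuts pyruvate dehydrogenase, was at least 3.52-fold lower. FOXO4 itself was at least 3.03-fold higher, the opposite direction. BTG1, an antiproliferative gene named after its value was seen, read 3780.0 in YAP-W1W2, against 9224.6 in YAP-WT. KLF9 differed by -1.28, with other probe sets from -0.86 to 0.76.

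**Figure D4:**
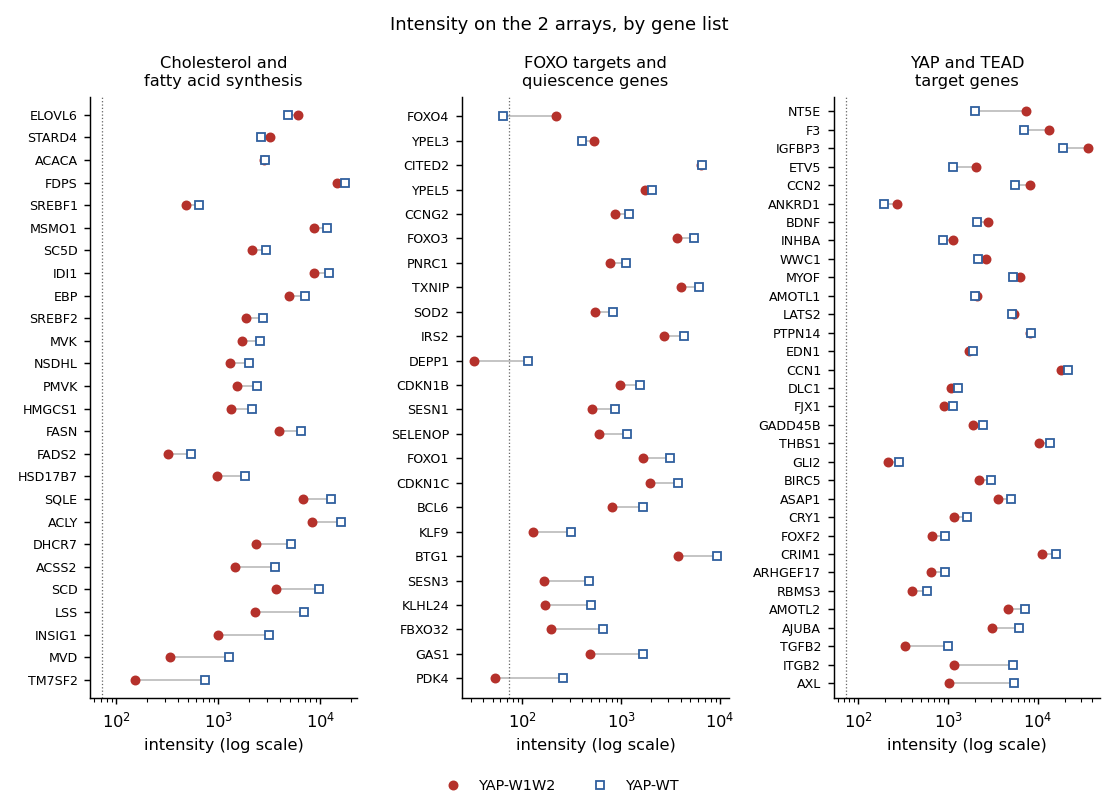
Intensity on a log axis of the genes of 3 lists, cholesterol and fatty acid synthesis, FOXO targets and quiescence genes, and YAP and TEAD targets; red circles are YAP-W1W2, blue open squares YAP-WT, and the dotted line is the floor. In the first 2 lists nearly every red circle lies left of its square, and in the YAP list the pairs lie on both sides.

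Of 26 p53 and p73 targets, 1 was higher and 3 lower, and the median was -0.19. TP53INP1, a stress-induced p53 cofactor, read 328.7 in YAP-W1W2, against 913.3 in YAP-WT, PLK2 2909.3 in YAP-W1W2, against 6157.3 in YAP-WT, RRM2B 1002.3 in YAP-W1W2, against 2046.4 in YAP-WT, and BAX, the apoptosis effector, 219.8 in YAP-W1W2, against 106.9 in YAP-WT. The glucocorticoid-responsive genes gave 1 higher and 4 lower of 19, with a median of -0.19. TSC22D3, SERPINA3, PDK4 and KLF9 were the lower ones, ANGPTL4 the higher one. In the IGF axis, IRS1 was the 1 lower gene of 8, and the median was -0.50.

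Of 27 measured genes of epithelial junctions and polarity, 5 (18.5%) passed 2-fold on the higher side and 1 on the lower side. The list's median was 0.20. EPCAM, the epithelial adhesion molecule, read 3440.4 in YAP-W1W2, against 1215.6 in YAP-WT (2.83-fold). OCLN, the tight junction protein occludin, read 2374.4 in YAP-W1W2, against 1116.9 in YAP-WT. CRB3, an apical polarity protein, read 920.9 in YAP-W1W2, against 390.0 in YAP-WT, and CLDN7, a claudin, 1600.3 in YAP-W1W2, against 786.4 in YAP-WT. With ESRP1 these were the 5 higher genes. EHF, an epithelial ETS factor, was lower, with 95.6 in YAP-W1W2, against 235.9 in YAP-WT, and another of its probe sets stood at 0.56.

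Of 21 mesenchymal genes and regulators of the epithelial-mesenchymal transition (EMT), 6 (28.6%) passed 2-fold on the lower side and 1 on the higher side. The median was -0.47. SPARC, the collagen-binding glycoprotein osteonectin, read 897.3 in YAP-W1W2, against 2486.4 in YAP-WT. FBN1, the microfibril protein fibrillin-1, read 1856.9 in YAP-W1W2, against 4198.2 in YAP-WT. VIM, the intermediate filament protein vimentin, named after its value was seen, read 9831.5 in YAP-W1W2, against 20225.4 in YAP-WT. S100A4 was lower, as above, while NT5E was the higher gene. CDH2, the N-cadherin gene, differed by 0.35 and FN1, fibronectin, by -0.19, also named after their values were seen.

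The EMT repressors of epithelial genes, ZEB1 and ZEB2, were both lower in the probe set used but not in all. ZEB1 read 180.1 in YAP-W1W2, against 381.6 in YAP-WT, with other probe sets at -1.19, -0.39 and 0.73. ZEB2 was at least 3.33-fold lower, with 49.3 in YAP-W1W2, against 243 in YAP-WT, while another of its probe sets differed by 0.04 and the rest were at the floor on both arrays.

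**Figure D5:**
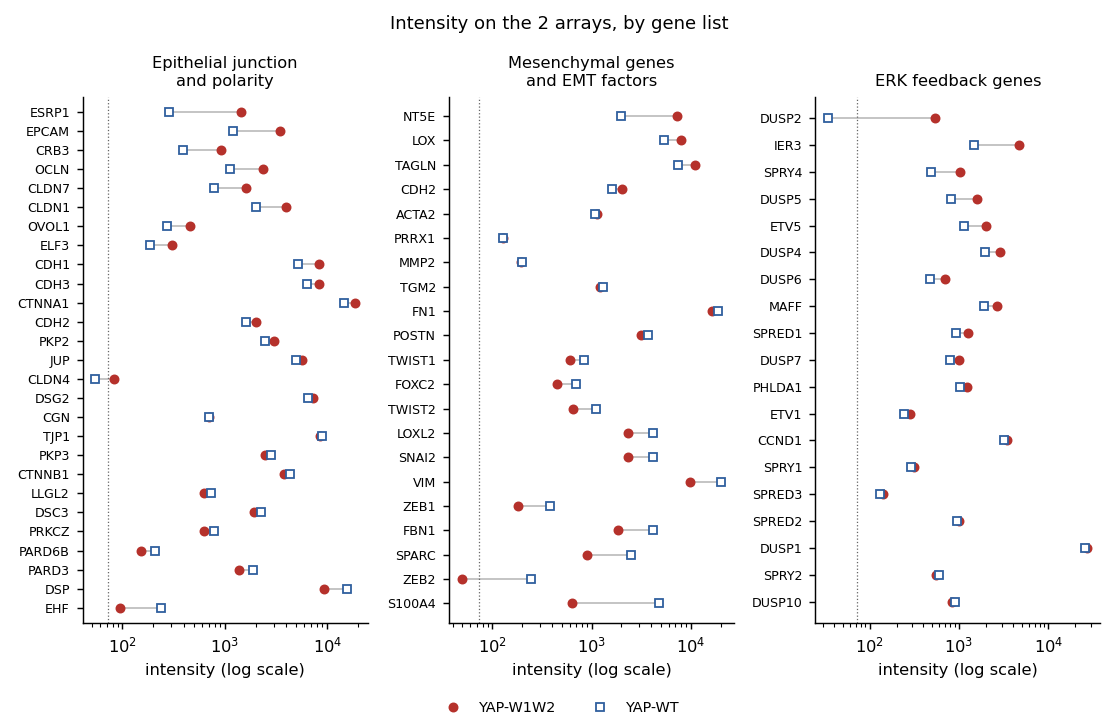
Intensity on a log axis of the genes of 3 lists, epithelial junction and polarity, mesenchymal genes and EMT factors, and ERK feedback genes; red circles are YAP-W1W2, blue open squares YAP-WT, and the dotted line is the floor. The upper epithelial genes (ESRP1, EPCAM, CRB3, OCLN, CLDN7) have their circles right of the squares, the lower mesenchymal genes (VIM, ZEB1, FBN1, SPARC, ZEB2, S100A4) have them left, and 17 of the 19 ERK feedback genes lie right.

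Matrix genes differed to both sides. Among 35 matrix glycoproteins, laminins and proteoglycans, 3 passed on the higher side and 5 on the lower side, around a median of -0.26. LTBP2, a latent TGF-beta binding protein family member, read 321.7 in YAP-W1W2, against 1214.1 in YAP-WT, whereas FBLN5, a fibulin of elastic fibres, read 1976.3 in YAP-W1W2, against 839.3 in YAP-WT and MATN2, a matrilin, 491.7 in YAP-W1W2, against 201.7 in YAP-WT. The 19 collagens gave 2 higher and 3 lower, with a median of -0.60 that depended on the choice of probe set. COL7A1, the anchoring-fibril collagen, was at least 3.06-fold lower, and COL5A2 read 122.4 in YAP-W1W2, against 274.2 in YAP-WT. COL5A3 was higher, with 211.8 in YAP-W1W2, against 98.5 in YAP-WT, and COL8A2 had 178.9 in YAP-W1W2, against 86.9 in YAP-WT. COL4A3 was lower, though its other probe sets lay between -0.95 and 0.44.

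Integrins were level as a list, with 2 higher and 1 lower of 15 and a median of 0.01. ITGA2 and ITGB2 were the extremes, and ITGA9 read 222.3 in YAP-W1W2, against 108.9 in YAP-WT. Metalloproteases and their inhibitors had 4 higher and 5 lower of 23, with a median of -0.24. MMP7, matrilysin, read 293.2 in YAP-W1W2, against 864 in YAP-WT, and ADAM19 read 407.7 in YAP-W1W2, against 166.6 in YAP-WT. ADAMTS15 was lower, with 261.9 in YAP-W1W2, against 633.1 in YAP-WT. MMP28 and ADAMTS12 had probe sets of opposite sign. Of 20 serpins, cystatins and genes of the plasminogen system, 3 were higher and 6 lower, and the median was 0.06. PLAT, tissue plasminogen activator, read 322.3 in YAP-W1W2, against 738.3 in YAP-WT, and PLAUR, the urokinase receptor, read 1122.2 in YAP-W1W2, against 509.2 in YAP-WT. Other PLAUR probe sets differed by 1.11 and -0.28. SERPINB1 was higher, with 3084.4 in YAP-W1W2, against 1491.1 in YAP-WT, and SERPINA3 was at least 3.74-fold lower.

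Genes of keratinocyte differentiation split evenly. Of 29 measured genes, 6 passed 2-fold on each side, and the median was -0.21. CST6, PI3 and CRABP2 were among the higher ones. CLCA2, SERPINB13 and SPRR1B were among the lower ones, and SPRR1B, a cornified envelope precursor, read 286.6 in YAP-W1W2, against 1169.2 in YAP-WT. SERPINB13 read 145.9 in YAP-W1W2, against 602.8 in YAP-WT, with other probe sets from -1.19 to 0.57. IVL, the envelope protein involucrin, named after its value was seen, read 323.4 in YAP-W1W2, against 150.2 in YAP-WT. Both shares exceed those of all genes, in opposite directions.

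Of 13 keratins, 3 passed on the higher side and 2 on the lower side, around a median of 0.13. KRT18, a keratin of simple epithelia, read 34605 in YAP-W1W2, against 16989.6 in YAP-WT, and KRT15, a basal keratin, read 1522.5 in YAP-W1W2, against 678.3 in YAP-WT. KRT4, the usual partner of KRT13 in moist stratified epithelia, read 1426.2 in YAP-W1W2, against 4548 in YAP-WT, lower where KRT13 was higher. KRT16, a keratin of stressed and healing skin, read 2244.6 in YAP-W1W2, against 5187.1 in YAP-WT. Among 12 S100 genes, S100A8 and S100A4 were lower and none was 2-fold higher, while the median was 0.33.

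The list of ERK feedback genes holds phosphatases and Sprouty-family proteins that ERK induces and that in turn dampen it. It also holds genes of other kinds, namely ETV1, ETV4, ETV5, PHLDA1, IER3, MAFF and CCND1. Of 19, 3 (15.8%) were higher by 2-fold or more, none lower, and 17 lay above 0, with a median of 0.33. IER3, an immediate early survival gene, read 4632.8 in YAP-W1W2, against 1481.3 in YAP-WT (3.13-fold). SPRY4, a Sprouty inhibitor, read 1024.1 in YAP-W1W2, against 485 in YAP-WT. DUSP2, at the floor in YAP-WT, was the third. The other 14 genes above 0 were under the threshold.

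Immediate early genes, which respond within minutes to serum and growth factors, gave 5 higher (29.4%) and none lower of 17, with a median of 0.41. This list shares IER3, which was among the 5, and MAFF with the ERK feedback list, so the lists are not separate observations. JUNB, an AP-1 subunit, read 1362.8 in YAP-W1W2, against 534.3 in YAP-WT. ZFP36, which destabilises AU-rich messages, read 2342.4 in YAP-W1W2, against 1134.7 in YAP-WT. NR4A1, an orphan nuclear receptor, was at least 3.31-fold higher and KLF2 at least 3.13-fold, but another probe set of each differed by -0.20.

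Among the ligands and receptors upstream, HBEGF and TGFA were the 2 higher genes of 12 in the EGF family list. TGFA, another ligand of the EGF receptor, read 1446.4 in YAP-W1W2, against 683 in YAP-WT. The receptor gene EGFR, named after its value was seen, read 7258.8 in YAP-W1W2 and 13200.4 in YAP-WT, a difference of -0.86, and the list's median was -0.17.

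Inflammatory genes had 2 higher and none lower of 26, with a median of 0.20. LIF, an interleukin-6 family cytokine, read 474.5 in YAP-W1W2, against 156.2 in YAP-WT, and CXCL16, a chemokine, 1505.2 in YAP-W1W2, against 636.2 in YAP-WT. In the prostaglandin list the synthase PTGS2 and the transporter SLCO2A1, with 336.2 in YAP-W1W2, against 137.6 in YAP-WT, were higher, and the reductase AKR1C3, with 200.7 in YAP-W1W2, against 459.6 in YAP-WT, was lower. These were the 3 past 2-fold of 15, whose median was -0.06. The interferon-stimulated genes gave 2 higher and 2 lower of 37, and their median was 0.30. IFIT2 read 709.4 in YAP-W1W2, against 310.3 in YAP-WT and OASL 324 in YAP-W1W2, against 159.4 in YAP-WT, whereas IFI44L read 350.3 in YAP-W1W2, against 718.6 in YAP-WT. IFI44 was lower too, but its other probe set differed by 0.12.

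The TGF-beta, activin and BMP list gave 5 higher and 4 lower of 38, with a median of 0.07. Among ligands, TGFB2 was lower, and BMP2 read 91.2 in YAP-W1W2, against 259.9 in YAP-WT, with its other probe set at -0.28. TGFB1 read 436.8 in YAP-W1W2, against 1160.5 in YAP-WT, with another probe set at 0.26. The activin antagonist FST, follistatin, was higher, with 473.2 in YAP-W1W2, against 120.9 in YAP-WT (3.91-fold), and another probe set above the floor on both arrays differed by 0.68. Of the receptors, TGFBR2, the type II signalling receptor, was higher, with 13973.5 in YAP-W1W2, against 6042.7 in YAP-WT, and the co-receptor TGFBR3 was lower. Ligand and receptor genes thus went to both sides.

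In the Wnt pathway list 2 genes passed on each side of 27, with a median of -0.25. WNT7B, a ligand, read 552.2 in YAP-W1W2, against 149.3 in YAP-WT, opposite to WNT5A. NKD1, a feedback inhibitor, was at least 3.71-fold higher, with other probe sets at 0.94 and -0.20. Of 20 Notch pathway genes, 1 was higher and 1 lower, around a median of 0.01. NRARP, a Notch target, read 224.4 in YAP-W1W2, against 106.1 in YAP-WT, and the coactivator MAML2 read 335.8 in YAP-W1W2, against 750.6 in YAP-WT.

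Of 18 retinoid and aldehyde dehydrogenase genes 3 were higher and 1 lower. With ALDH1A3, DHRS3, which returns retinaldehyde to retinol, was higher, with 3689.4 in YAP-W1W2, against 1094.4 in YAP-WT. CRABP2, the carrier of retinoic acid to its receptor, was at least 3.55-fold higher. ALDH3A1 read 75.1 in YAP-W1W2, against 197.3 in YAP-WT. The median was -0.15, with 6 genes above 0 and 12 below.

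Axon guidance genes, many of which also act in epithelial movement, had 1 higher and 3 lower of 38, with 29 below 0 and a median of -0.31. ROBO1, a receptor for SLIT, read 634.7 in YAP-W1W2, against 1417.8 in YAP-WT, and SEMA3F, a secreted semaphorin, 1635.7 in YAP-W1W2, against 3470.0 in YAP-WT. The 2 other SEMA3F probe sets both differed by -0.07. ROBO4 read 374 in YAP-W1W2, against 186.4 in YAP-WT. SEMA6D was lower only in the probe set used, with others up to 1.31. Of 33 genes of the actin cytoskeleton, 1 was higher and 2 lower, around a median of 0.15. ACTG2, a smooth muscle actin, read 293.4 in YAP-W1W2, against 78.6 in YAP-WT, near the floor in YAP-WT, and SRF, the factor that drives actin genes, read 242 in YAP-W1W2, against 513.5 in YAP-WT, with its other probe set at -0.27.

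Metabolic and stress lists other than lipid synthesis differed to both sides. Glycolysis and hypoxia genes gave 1 higher, ANGPTL4, and 2 lower of 32, with a median of 0.15. NDRG1, a gene of hypoxia and differentiation, read 3703 in YAP-W1W2, against 12942.6 in YAP-WT (3.50-fold), and the glucose transporter SLC2A3 read 104.6 in YAP-W1W2, against 279.2 in YAP-WT, with another probe set at 0.09. The ATF4 and unfolded protein response list gave 2 higher and 4 lower of 32, with a median of -0.06. VLDLR, a lipoprotein receptor, read 793 in YAP-W1W2, against 216.7 in YAP-WT, and CHAC1, a glutathione-degrading enzyme, was at least 4.73-fold higher. DDIT4, an mTORC1 inhibitor, read 5033.8 in YAP-W1W2, against 10160.7 in YAP-WT. ALDH1L2 read 299 in YAP-W1W2, against 838.2 in YAP-WT, with another probe set at -0.01, and PSPH, of serine synthesis, 228.9 in YAP-W1W2, against 520.0 in YAP-WT. CBS had probe sets of opposite sign.

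Few cell division genes passed 2-fold. DNA replication genes had 1 higher and none lower of 39, with 31 above 0 and a median of 0.21. The higher one was CDT1, which licenses replication origins, with 1871.6 in YAP-W1W2, against 819 in YAP-WT, but its other probe set differed by 0.30. Mitosis genes had none past 2-fold of 43, and a median of -0.13. Their largest differences were those of CENPE, a kinetochore motor, at 0.73 and CDCA8, a chromosomal passenger protein, at 0.72.

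The housekeeping lists had no gene past 2-fold in the probe set used. In 49 ribosomal protein genes the median was 0.10, with extremes of -0.46 for RPLP2 and 0.45 for RPS15. In 39 respiratory chain genes the median was -0.12. SDHA, a subunit of complex II, was at -0.88 and UQCRB, of complex III, at -0.61, with another UQCRB probe set at -1.07.

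Markers of cell types were summed over all of a list on the array, and counted over those that could be compared. The 13 basal mammary markers had 1 higher, KRT15, and 1 lower, MME, and their summed intensity was 150970.0 in YAP-W1W2 and 160261 in YAP-WT. The 13 luminal markers had 3 higher, ALDH1A3, KRT18 and TFF3, and none lower by 2-fold, with sums of 111965 in YAP-W1W2 and 86472.1 in YAP-WT. Of the 13, 8 lay above 0 and 5 below, with a median of 0.13. MUC1 read 6536.7 in YAP-W1W2, against 11905.4 in YAP-WT, and GATA3 4722.6 in YAP-W1W2, against 7108.3 in YAP-WT. Both were lower by less than 2-fold and were named after their values were seen. The defining luminal keratin KRT19 was below the floor on both arrays. The 7 fibroblast markers had 2 higher and 1 lower, with sums of 11015.5 in YAP-W1W2 and 14953 in YAP-WT. DCN was the lower one. FAP, a fibroblast surface protease, read 3690.6 in YAP-W1W2, against 1631.2 in YAP-WT, and THY1 was at least 4.34-fold higher with other probe sets at 0.09 and -0.49. Of the 7, 3 lay above 0 and 4 below, with a median of -0.44. COL1A1 read 719.2 in YAP-W1W2, against 1105.4 in YAP-WT, FBLN1 4582.6 in YAP-W1W2, against 6209 in YAP-WT and PDPN 915 in YAP-W1W2, against 1772.4 in YAP-WT, all lower by less than 2-fold.

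Most markers of blood and vessels lay at or below the floor, with exceptions. The summed intensity of the immune markers was 977.5 in YAP-W1W2 and 962.5 in YAP-WT, and the endothelial sum was 879.8 in YAP-W1W2 and 1248.1 in YAP-WT. Of the 9 endothelial markers 7 lay at or below the floor in YAP-W1W2 and 6 in YAP-WT, among them CDH5 and TIE1 in both. PECAM1, an adhesion molecule of endothelium and platelets, was above it and read 576.8 in YAP-W1W2 and 680.9 in YAP-WT. The T cell gene CD3E read 49.9 in YAP-W1W2 and 256.1 in YAP-WT, below the filter on the mean over the 4 arrays. ITGAM differed by 0.72, FCER1G by 0.41, and EGFL7 read 81.3 in YAP-W1W2, against 254.5 in YAP-WT. The part of cell makeup in the gene results was not tested.

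The values of the leading genes on the other arrays are set beside those above. These genes were chosen by their YAP-W1W2 and YAP-WT values, so which array read highest is in part set by that choice. YAP-S94A carries a change known to weaken binding to TEAD, and it shares the vector, medium and WT array with the comparison above. For the first 6 higher genes above, KRT13 read 565.1 in YAP-S94A and 778.5 in the vector array, ITGA2 979.6 in YAP-S94A and 308.9 in the vector array, and CST6 980.7 in YAP-S94A and 281.5 in the vector array. ALDH1A3 read 4597.4 in YAP-S94A and 2295.5 in the vector array, ZNF710 832.1 in YAP-S94A and 676 in the vector array, and ANHX 123.9 in YAP-S94A and 477.8 in the vector array. Of these 6, ZNF710 read highest in YAP-S94A and the other 5 in YAP-W1W2. The log2 difference YAP-S94A minus YAP-WT was 2.04 for KRT13, 1.40 for ITGA2 and 0.45 for CST6. It was 2.87 for ALDH1A3, 3.01 for ZNF710 and 0.19 for ANHX. For KRT13, ITGA2, ALDH1A3 and ZNF710 a difference past 2-fold from YAP-WT was thus not particular to YAP-W1W2.

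For the first 6 lower genes, ALPP read 19 in YAP-S94A and 35.3 in the vector array, and DCN 288 in YAP-S94A and 9343.9 in the vector array. ZBTB40 read 901.4 in YAP-S94A and 986.9 in the vector array, and PNPLA4 735.8 in YAP-S94A and 860.7 in the vector array. KCNT2 read 67.7 in YAP-S94A and 358.5 in the vector array, and CLCA2 1245.7 in YAP-S94A and 6564.9 in the vector array. ALPP, KCNT2, ZBTB40 and PNPLA4 read highest in YAP-WT of the 4 arrays, whereas DCN and CLCA2 read highest in the vector array. YAP-S94A minus YAP-WT was -3.75 for DCN, -0.30 for ZBTB40, -0.87 for PNPLA4 and 0.01 for CLCA2. With YAP-S94A at the floor, it was -4.80 or lower for ALPP and -5.90 or lower for KCNT2. For ALPP, DCN and KCNT2 a difference past 2-fold from YAP-WT was thus not particular to YAP-W1W2. The gene lists were not compared between YAP-S94A and YAP-WT, so none is shown to be particular to YAP-W1W2. Among the named FOXO genes, YAP-S94A minus YAP-WT was -2.62 for GAS1, -2.37 for KLHL24, -1.97 for SESN3 and -0.89 for KLF9. It was -3.16 or lower for FBXO32 and -1.82 or lower for PDK4. FOXO4 was at the floor in YAP-S94A and in YAP-WT.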

How the data were processed

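Total RNA of 4 MCF10A cultures, 1 array each, was measured on Affymetrix arrays. The values are linear intensities deposited by the authors, made with GCOS per the submitters' processing notes. Neither its version nor a scaling target nor a genome build is named in the sources used here, so no coordinates are printed except those of RefSeq promoters. The depth of an array cannot be counted, and the number of arrays limits the precision.

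The 2% trimmed means of the 2 arrays differed by less than 10%, so values were used as deposited. Intensities were raised to a floor of 72.9, the 40th percentile over the 4 arrays, and log2 was taken. Of 54675 probe sets, 62 controls were set apart, 41097 had 1 gene symbol (41043 of them in the RefSeq table of GRCh38.p14), 1801 had several and 11777 none. Genes with a mean under 113.58, the median over probe sets, were left out. Python 3.11.15, numpy 2.4.6, pandas 2.3.3 and matplotlib 3.10.9 were used, and the 2-fold counting was tested on simulated data. Promoter windows came from RefSeq GRCh38.p14.

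The members and the 36 gene lists and 5 marker lists were chosen with earlier results of these data known. Genes named were YAP1, the 25 largest differences each way above the floor, the 12 largest bounds each way, all YAP target and Hippo genes, and in other lists up to 6 members past 2-fold or else the 2 largest. A gene outside this rule is marked as named after its value was seen, apart from defining markers of a cell type. Alternatives changed the scaling, the floor, the offset, the dim filter and the choice of probe set.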

Additional observations from a re-analysis of the deposited data

How the results depend on the processing

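No paired analysis was possible because each group has 1 array. No replicate could be left out for the same reason, and background correction and a slide term could not be tried on values that were already summarised. With the dim filter at the 75th percentile, 109 genes passed 2-fold on the higher side and 289 on the lower side, and 13 and 34 passed 4-fold. With the floor at the 60th percentile, the counts were 194 and 425 at 2-fold, and 17 and 34 at 4-fold. With the floor at the 20th percentile, 110 genes passed 4-fold on the higher side and 131 on the lower side. With an offset of 50 in place of the floor, 45 genes were at least 4-fold lower, and without probe sets of shared suffix (_s_at, _x_at and _a_at) 42 were. A higher floor and a stricter filter remove dim genes by construction. Scaling the arrays to the same trimmed mean gave 579 higher and 594 lower genes at 2-fold, centring the differences on their median 547 and 628, and quantile normalization 572 and 582. The median of the collagen list was -0.10 with the mean over probe sets. Of the genes named by the rule, none past 2-fold changed sign under the scalings, floors or offset. Without probe sets of shared suffix, ADAMTS12 was at -0.62, CYP3A4 at -0.41, PLAUR at -0.28, ZEB2 at 0.0352 and LRRC43 at -0.16. With the brightest probe set over the 2 arrays, KLF2 was at -0.20, LRRC43 at -0.16, MMP28 at 0.18, SEMA6D at 1.31, SYNPO at 0.56 and ZNF710 at -0.37. With the mean over probe sets SEMA6D was at 0.0902. These settings read other probe sets of the same gene or an average of them, and the cause of the difference between probe sets was not tested. Signals near the floor limit what can be said of the dimmest genes.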

Other observations

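Some genes outside the lists, chosen after their values were seen, had roles close to those described. Among epithelial genes, RAB25, a GTPase of apical recycling, read 1249.6 in YAP-W1W2, against 364 in YAP-WT. AP1M2, the epithelial clathrin adaptor subunit, read 1320.1 in YAP-W1W2, against 443.1 in YAP-WT, and ST14, the protease matriptase, 2150.7 in YAP-W1W2, against 854.7 in YAP-WT. CXADR, a tight junction receptor, read 4312.4 in YAP-W1W2, against 1402.6 in YAP-WT, LSR, of tricellular junctions, 3311.4 in YAP-W1W2, against 1526.1 in YAP-WT, and TSPAN1, a tetraspanin, 2685.6 in YAP-W1W2, against 734.3 in YAP-WT. All 6 were at least 2-fold higher in YAP-W1W2 in the probe set used, while other CXADR probe sets differed by 0.15 and 0.99.

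In lipid metabolism, LPIN1, the phosphatidate phosphatase that makes diacylglycerol, read 2069.5 in YAP-W1W2, against 8833.7 in YAP-WT (4.27-fold lower). ACSL1, which activates long-chain fatty acids, read 1790.5 in YAP-W1W2, against 5025.6 in YAP-WT. DGAT1, which completes triacylglycerol synthesis, read 489.7 in YAP-W1W2, against 997.3 in YAP-WT, and TMEM97, a sterol-regulated receptor, 3156.7 in YAP-W1W2, against 7080.6 in YAP-WT. These 4 were at least 2-fold lower.

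The metallothioneins, small proteins that bind zinc and copper, read higher in YAP-W1W2 in the probe set used for each of 6 genes, 1 of them past 2-fold. MT1H read 38671.6 in YAP-W1W2, against 15260.1 in YAP-WT, a difference of 1.34. MT2A read 58573.4 in YAP-W1W2, against 40347.7 in YAP-WT and MT1X 43245 in YAP-W1W2, against 24985.5 in YAP-WT, with differences of 0.54 and 0.79. MT1F, MT1G and MT1E differed by 0.51, 0.50 and 0.25, though other probe sets of MT1F and MT1G were at -0.33 and -0.26. These genes are close copies of each other, and their separate values are uncertain.

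Among regulators, HMGA2, a chromatin protein, read 865.5 in YAP-W1W2, against 336.3 in YAP-WT, while its other probe sets lay between -0.24 and 0.37. ID1, an inhibitor of helix-loop-helix factors, read 25413.1 in YAP-W1W2, against 12254.6 in YAP-WT, and ID3 read 13676.1 in YAP-W1W2 and 12918.1 in YAP-WT. CCN5, a matricellular protein of the CCN2 family, was lower, with 409.6 in YAP-W1W2, against 1255.3 in YAP-WT. FGFBP1, a carrier of fibroblast growth factors, read 583.1 in YAP-W1W2, against 1927.5 in YAP-WT, and TM4SF1, a membrane protein, 2004.2 in YAP-W1W2, against 6220.2 in YAP-WT.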
